A study of Bos taurus with 4 samples.

Results

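Chromosome 23 of the cow was examined as a whole in bovine embryonic stem cells (bESCs), using all the H3K4me3 and H3K27me3 peaks that the deposited lists place on it. Of the 95708 peaks in the 4 lists, 6344 lay on this chromosome. These were 4651 of 50034 H3K4me3 peaks (2483 in replicate 1 and 2168 in replicate 2) and 1693 of 45674 H3K27me3 peaks (897 and 796). The chromosome was selected on measured values of these same lists: the density of its H3K4me3 peaks, their low scores and their widest domains. Those values are therefore a description. A single chromosome has no replicate among chromosomes and there were 2 libraries per mark. No test was therefore made, and each value is given for both libraries beside the other 28 autosomes.

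The cells were NBFR-bESCs, a line grown in N2B27-based medium with BSA, FGF2 and the tankyrase inhibitor IWR-1 on mouse embryonic fibroblasts. The fibroblasts were depleted with feeder removal beads before profiling, and 50000 cells went into each library. The sample labels describe 1 derivation, from a female blastocyst fertilized in vitro, whereas the study speaks of independent lines, and which line gave which replicate is not stated. All 4 libraries shared these conditions and differed in the antibody, so there was no treated group. The files give no read numbers, so the depth is unknown, and a place without a peak is described as without a listed peak.

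CUT&RUN uses an antibody to bring a nuclease to chromatin that carries a given mark, and the DNA released by the cut is sequenced. H3K4me3 is placed around the start sites of active and poised genes and is usually a narrow mark. H3K27me3 is placed by Polycomb repressive complex 2 over silent developmental genes and can spread over long domains. Places with both marks are called bivalent and are typical of developmental genes in pluripotent cells. Bovine chromosome 23 carries the major histocompatibility complex (BoLA genes), the pluripotency gene POU5F1, blocks of olfactory receptor genes and the main cluster of histone genes. In the RefSeq table of a later assembly, ARS-UCD2.0, 57 of the 76 autosomal genes with a histone symbol are on chromosome 23, and all 57 follow POU5F1 and precede the prolactin gene PRL in gene order. The same table puts 212 of 2160 autosomal transfer RNA genes and 703 of 20280 autosomal protein-coding genes there. Its coordinates were not used, so no peak is assigned to a gene from it.

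H3K4me3 peaks were more frequent on chromosome 23 than on any other autosome in both libraries. There were 47.3 peaks per Mb in replicate 1 and 41.3 in replicate 2, counted up to the last listed peak. The median of the other autosomes was 8.55 and 8.01 per Mb, and the highest of them, chromosome 19, had 20.6 and 19.0. H3K4me3 peaks covered 11% and 11.3% of chromosome 23, against medians of 2.28% and 2.28%. The peaks were narrower, their median width being 1600 bp and 2000 bp against 2400 bp and 2600 bp, the lowest among the autosomes in both libraries.

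To separate the peaks by strength, a peak was called weak when the authors' score was below the median of its whole list (186 in replicate 1 and 206 in replicate 2) and strong otherwise. The score is a whole number of unstated meaning and was used only as a rank within a list. On chromosome 23, 2001 of 2483 H3K4me3 peaks (80.6%, 95% Wilson interval 79.0% to 82.1%) were weak in replicate 1 and 1715 of 2168 (79.1%, 77.3% to 80.8%) in replicate 2. On the other autosomes 44.3% and 44.6% were weak, and the highest single chromosome, 27, had 51.1% and 53.3%. All such intervals cover counting error only. Weak peaks stood at 38.1 and 32.7 per Mb, against a highest value of 9.44 and 8.86 elsewhere, on chromosome 19. Strong peaks stood at 9.18 and 8.63 per Mb, against medians of 4.52 and 4.20 elsewhere, and the chromosome ranked 4 of the 29.

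**Figure D1:**
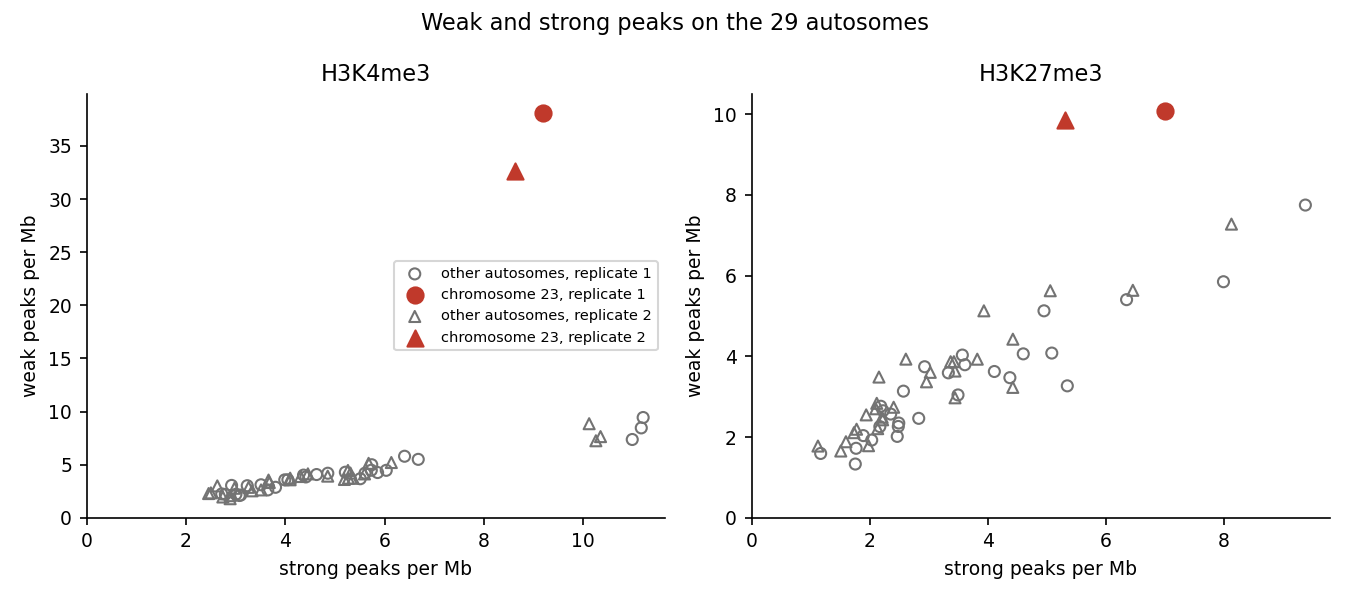
Weak peaks per Mb (vertical axis) against strong peaks per Mb (horizontal axis) for each of the 29 autosomes, with H3K4me3 on the left and H3K27me3 on the right. Circles are replicate 1, triangles are replicate 2 and filled red symbols are chromosome 23. For H3K4me3, chromosome 23 stands at 38.1 and 32.7 weak peaks per Mb, far above the line along which the other autosomes lie, and for H3K27me3 at 10.1 and 9.85.

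Set against gene content, the strong and the weak peaks also parted. Per protein-coding gene counted in the RefSeq table, chromosome 23 had 0.686 strong H3K4me3 peaks in replicate 1 and 0.644 in replicate 2. The other autosomes had a median of 0.635 and 0.581 and a highest value of 0.718 and 0.661. Weak peaks stood at 2.85 and 2.44 per gene, against medians of 0.498 and 0.474 and a highest value of 0.671 and 0.618. The number of strong peaks per gene thus lay inside the range of the other autosomes and the number of weak peaks lay outside it in both libraries.

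The excess was not spread evenly over the scores. Each list was cut into 10 groups of equal size by score and the density on chromosome 23 was divided by the median of the other autosomes in each group. In the second lowest group the ratio was 15.2 in replicate 1 and 14.3 in replicate 2, and 21.8% and 21.6% of all peaks of that group in the genome were on this chromosome. From there the ratio fell to 3.49 and 2.76 in the fifth group and to 0.761 and 0.949 in the eighth, the only group below 1. The sixth and seventh groups stood at 1.68 and 1.36 in replicate 1 and at 1.31 and 1.28 in replicate 2. In the ninth group the ratio was 1.74 and 1.97. It rose to 4.59 and 4.92 in the group of highest scores, with 214 and 205 peaks. The lowest group stood at 10.4 and 10.2. The excess of H3K4me3 peaks on chromosome 23 was therefore largest at low scores, small in the upper middle of the range and raised again, to a lesser degree, at the highest scores.

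**Figure D2:**
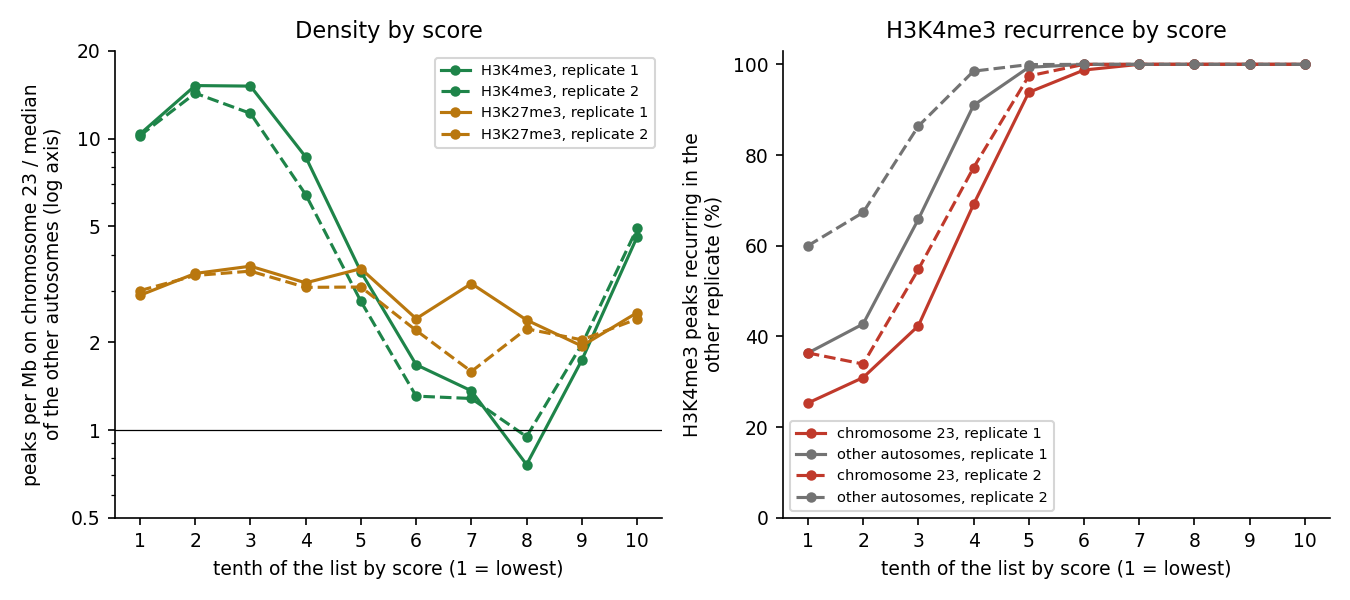
Left, density of peaks on chromosome 23 relative to the median of the other autosomes (log axis) by score group, from the lowest to the highest scores, for both marks. Right, percent of H3K4me3 peaks that overlapped a peak of the other replicate, on chromosome 23 (red) and on the other autosomes (grey). Solid lines are replicate 1 and dashed lines replicate 2. The H3K4me3 ratio starts at 10.4 and 10.2, reaches 15.2 and 14.3 in the second group and falls below 1 in the eighth. It then rises to 4.59 and 4.92, while the H3K27me3 ratio stays between 1.59 and 3.65.

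The weak peaks of chromosome 23 recurred less often between replicates. Recurrence meant an overlap of at least 1 bp with a peak of the other replicate. In replicate 1, 893 of 2001 weak peaks recurred (44.6%, 42.5% to 46.8%), against 68.6% on the other autosomes. In replicate 2, 873 of 1715 did (50.9%, 48.5% to 53.3%), against 83.7%. Both shares were below that of every other autosome, the lowest of which were chromosome 1 with 62.5% in replicate 1 and chromosome 12 with 79.9% in replicate 2. This held within score groups as well. In the third group 42.3% and 54.8% recurred on chromosome 23 and 65.8% and 86.4% elsewhere. In the fifth group the shares were 93.8% and 97.4% against 99.4% and 99.95%. Of the strong peaks, 481 of 482 recurred in replicate 1 and 453 of 453 in replicate 2, against 100% and 100% on the other autosomes.

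Although fewer single peaks recurred, the numbers of weak peaks per window of 1 Mb varied together in both libraries. Over the 53 windows of the chromosome the counts of weak peaks had a Pearson correlation of 0.98 between replicates (0.94 over the 2449 windows of the other autosomes). This is a description over neighbouring windows, which all share the same libraries. The numbers themselves could differ, as at 39 to 40 Mb with 57 in replicate 1 and 28 in replicate 2. Weak and strong peaks also varied together along the chromosome. Their Spearman correlation was 0.84 in replicate 1 and 0.83 in replicate 2, above the 0.73 and 0.70 of the other autosomes. Their Pearson correlation was 0.66 and 0.59, below the 0.77 and 0.74 elsewhere, so the order depended on the measure. The median distance from a weak peak to the nearest strong peak was 21.8 kb and 26.0 kb. The other autosomes had 24.4 kb and 29.8 kb. Within 10 kb of a strong peak lay 34.4% and 30.8% of the weak peaks, against 33.7% and 29.6%. Strong peaks were denser on chromosome 23, at 9.18 and 8.63 per Mb against medians of 4.52 and 4.20 elsewhere. The part of this density in the distances was not tested. Neighbouring peaks of any strength were closer together, with a median gap of 5.50 kb and 6.20 kb against 31 kb and 33.6 kb.

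The weak H3K4me3 peaks sat along most of the chromosome and were piled up in a few stretches. The median window held 30 weak peaks in replicate 1 and 25 in replicate 2, whereas the median window elsewhere held 2 and 2. More weak peaks than in the 99th percentile of the other autosomes (23 in both libraries) were found in 31 of 53 windows in replicate 1 and in 29 in replicate 2, against 0.898% and 0.857% of the windows elsewhere. The 29 windows dense in replicate 2 were dense in both, against 0.612% elsewhere, and they held 84.0% and 84.1% of the weak peaks of the chromosome. In each library 18 windows held more weak peaks than any window of another autosome, where the highest counts were 46 and 33. Chromosome 18 came next, with 4 windows dense in both libraries.

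The window with most weak peaks ran from 17 to 18 Mb, with 102 in replicate 1 and 105 in replicate 2, beside 23 and 21 strong peaks. The window from 27 to 28 Mb had 102 and 83, and the one from 15 to 16 Mb had 96 and 85. The windows starting at 28 Mb (91 and 78), 41 Mb (86 and 81) and 16 Mb (87 and 70) followed, and then those starting at 10 Mb (81 and 73), 7 Mb (86 and 67), 8 Mb (77 and 60) and 9 Mb (69 and 60). All of these 10 windows were also rich in strong peaks, with 12 or more in each library. Most of the counts came from a handful of blocks, the first from 7 to 12 Mb and the next from 14 to 18 Mb. The others ran from 27 to 29 Mb, from 30 to 33 Mb and from 39 to 44 Mb. Together these blocks made up 19 Mb and held 66.4% of the weak and 73.9% of the strong H3K4me3 peaks of replicate 1, and 65.5% and 74.6% of those of replicate 2. Their limits were drawn after the counts were seen.

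Outside the blocks the weak peaks thinned out, but on average they stayed above the level of other chromosomes. Some windows there were still dense in both libraries, and the longest run of them lay at 47 to 51 Mb. Its windows held 30, 33, 47 and 40 weak peaks in replicate 1 and 27, 29, 41 and 48 in replicate 2. The windows starting at 36, 49 and 50 Mb held more weak peaks than some windows inside the blocks. The remaining 33.5 Mb still held 20.1 and 17.6 weak peaks per Mb, above the 9.44 and 8.86 of chromosome 19, the densest other autosome. Strong peaks of this remainder stood at 3.76 and 3.43 per Mb, and the medians over the other autosomes were 4.52 and 4.20. Those medians are of whole chromosomes with their dense parts. The blocks left out here held 73.9% and 74.6% of the strong peaks, so the comparison is not like for like. The emptiest windows were 1 to 2 Mb with 3 weak peaks in replicate 1 and 1 in replicate 2, 5 to 6 Mb with 3 and 2, 4 to 5 Mb with 4 and 5, and 34 to 35 Mb with 7 and 2. In replicate 2, 3 of these windows were at or below the median of 2 elsewhere. Of the 4 windows, only 4 to 5 Mb had strong peaks, 2 in each library. The longest stretch without a listed H3K4me3 peak in either library was 636 kb, from 23694801 to 24331200 (ARS-UCD1.2, as are all positions here).

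Windows with like numbers of strong peaks also differed. In windows with no strong peak, the median number of weak peaks was 7.0 on chromosome 23 and 0 elsewhere in replicate 1, and 3.5 and 0 in replicate 2. In windows with 11 to 20 strong peaks it was 73.0 in 6 windows against 9 in 186 windows in replicate 1, and 66.5 in 6 windows against 10 in 165 in replicate 2. The lowest of these windows on chromosome 23 held 40 and 53 weak peaks, and the highest elsewhere held 46 and 33. The window from 32 to 33 Mb stood apart from the others of its kind, with 60 and 55 weak peaks beside 2 and 1 strong ones. The windows from 30 to 31 Mb and 31 to 32 Mb showed the reverse. They held 39 and 58 strong peaks in replicate 1 and 36 and 61 in replicate 2, but 38 and 54 weak peaks in replicate 1 and 30 and 41 in replicate 2. The 58 and 61 strong peaks of the latter window were above the highest count of any window on another autosome, 47 and 44.

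**Figure D3:**
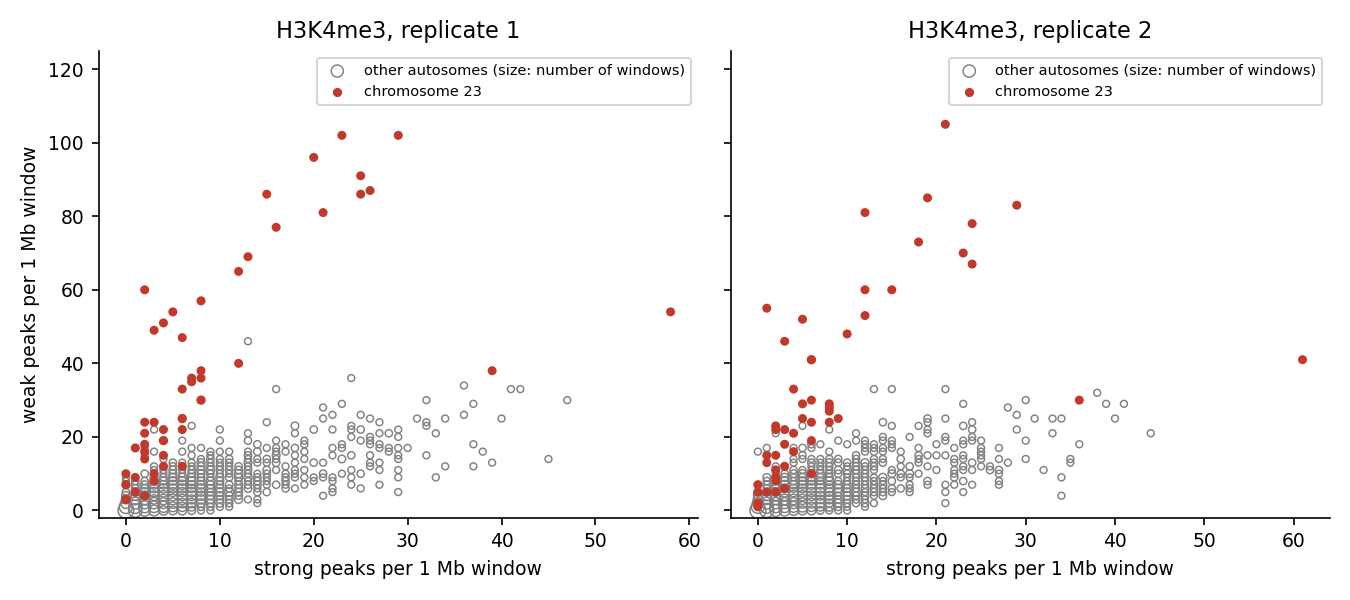
Weak against strong H3K4me3 peaks in windows of 1 Mb, replicate 1 on the left and replicate 2 on the right. Red points are the 53 windows of chromosome 23 and open grey points are the 2449 windows of the other autosomes, with larger points where several windows share the same counts. Most red points lie above the grey ones at the same number of strong peaks, and the windows with 58 and 61 strong peaks, at 31 to 32 Mb, lie farthest to the right.

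Weak peaks of chromosome 23 were slightly wider than those elsewhere, by 200 bp, which is 1 bin of the peak caller. Their median width was 1400 bp and 1800 bp, with 1200 bp and 1600 bp over the weak peaks of the other autosomes. This median was above those of 26 of the 28 other autosomes in replicate 1 and of all 28 in replicate 2. Their scores were lower within the weak class, with a median of 50 and 56 against 60 and 71. Recurrence varied among the blocks. In the block at 27 to 29 Mb, 64.2% and 72.7% of the weak peaks recurred, in that at 39 to 44 Mb 38.4% and 46.3%, and outside the blocks 36.4% and 43.1%.

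Wide H3K4me3 domains gathered on chromosome 23. Peaks of 10 kb or more numbered 60 of 2483 (2.42%) in replicate 1 and 54 of 2168 (2.49%) in replicate 2, against 0.682% and 0.806% of the peaks on the other autosomes. Among strong peaks alone the shares were 12.4% (9.79% to 15.7%) and 11.9% (9.25% to 15.2%), against 1.23% and 1.46%. Of all autosomal peaks of this width, 29.1% and 25.2% were on this chromosome. They stood at 1.14 and 1.03 per Mb, against a highest value of 0.268 and 0.236 elsewhere, on chromosome 19. At 15 kb or more there were 17 and 16 on chromosome 23 and 19 and 20 on the 28 other autosomes together, and at 20 kb or more 7 and 7 against 5 and 5. All of the peaks of 10 kb or more recurred in both directions. The strong peaks as a whole were wide as well, with a median of 4900 bp and 5000 bp against medians of 3400 bp and 3600 bp on the other autosomes.

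**Figure D4:**
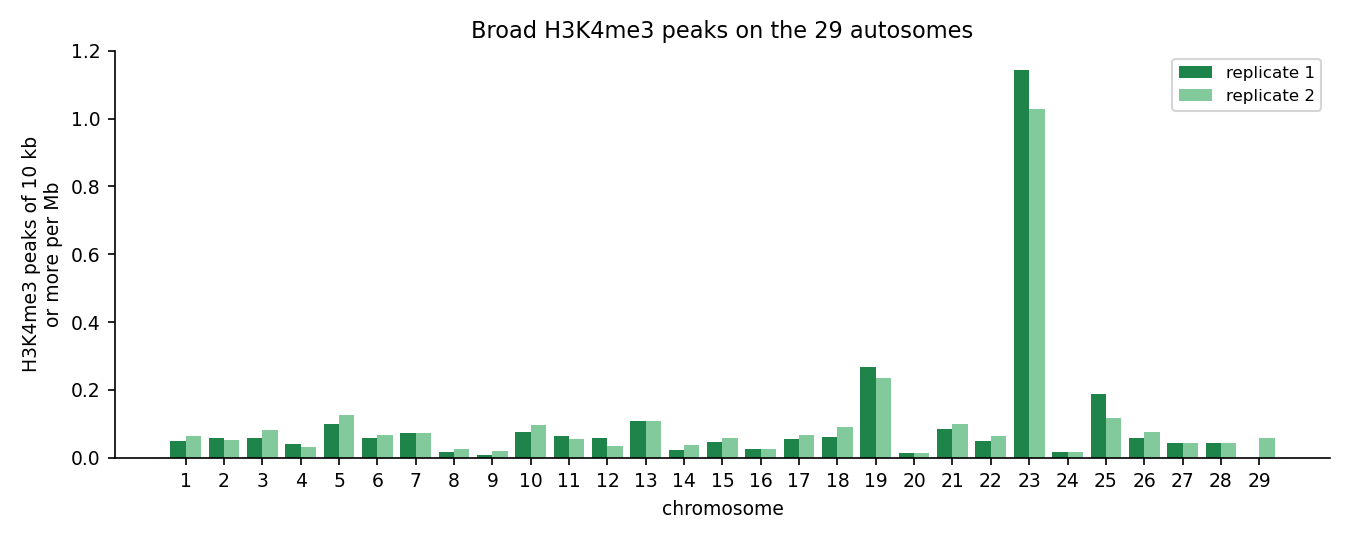
H3K4me3 peaks of 10 kb or more per Mb (bars, starting at 0) on each of the 29 autosomes, with replicate 1 dark and replicate 2 light. Chromosome 23 stands at 1.14 and 1.03 per Mb, and the next, chromosome 19, at 0.268 and 0.236.

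The windows with most broad peaks were not those with most weak peaks. The window from 31 to 32 Mb held 15 of the 60 in replicate 1 and 12 of the 54 in replicate 2, and that from 30 to 31 Mb held 9 and 6. The window from 27 to 28 Mb, which came after 17 to 18 Mb in weak peaks, held 8 and 7, and that from 7 to 8 Mb held 4 and 7. The window from 17 to 18 Mb, richest in weak peaks, held 3 and 2. These windows also differed in strong peaks, with 58 and 61 at 31 to 32 Mb and 39 and 36 at 30 to 31 Mb. There were 29 and 29 at 27 to 28 Mb and 25 and 24 at 7 to 8 Mb. The window from 17 to 18 Mb had 23 and 21. The part of the number of strong peaks in these counts of broad peaks was not tested. H3K4me3 covered 55.5% and 54.0% of the window from 31 to 32 Mb, the highest on the chromosome. Without the 2 Mb from 30 to 32 Mb, 36 and 36 broad peaks remained, at 0.713 and 0.713 per Mb, still above every other autosome.

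Some of the highest scores lay in the same stretch. Of the 263 peaks in the top 1% of scores of the replicate 1 list, 76 were on chromosome 23. Of these, 29 were between 30 and 32 Mb. In replicate 2, 66 of 241 were on the chromosome and 23 in the stretch. Most of the top peaks of the chromosome thus lay outside the stretch in both libraries. Of all listed peaks, chromosome 23 held 2483 of 26048 in replicate 1 and 2168 of 23986 in replicate 2. The stretch held 189 of the 2483 and 168 of the 2168. Of the strong peaks of the chromosome, it held 97 of 482 and 97 of 453. Strong peaks outnumbered weak ones in the stretch, with 97 strong and 92 weak in replicate 1 and 97 and 71 in replicate 2. This was the reverse of the chromosome as a whole. H3K27me3 overlapped 44.4% and 42.3% of the H3K4me3 peaks of the stretch, against 31.8% and 29.3% over the whole chromosome and 23.8% and 24.5% on the other autosomes.

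When the peaks of both replicates were merged, 3142 H3K4me3 domains resulted on chromosome 23, and 7 of the 10 widest had their centre between 30 and 32 Mb. The one with the highest score lay at 31670401 to 31707800 in replicate 1 (37.4 kb) and at 31671401 to 31705400 in replicate 2 (34.0 kb). It had the highest score of its entire list in both libraries, so no H3K4me3 peak on any chromosome scored higher. H3K27me3 covered 1.54% of it in replicate 1 and none in replicate 2. The widest merged domain, 48.4 kb from 41671001 to 41719400, was broken differently in each library. Replicate 1 listed 6 peaks there, the widest at 41704801 to 41718800 (14 kb), and replicate 2 listed 4, the widest at 41682401 to 41719400 (37 kb). No H3K27me3 peak touched it in either library.

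The second widest domain, 47 kb from 31319601 to 31366600, had peaks of up to 29.4 kb and 27.8 kb. H3K27me3 covered 41.3% of it in replicate 1 and 48.1% in replicate 2. A domain from 30104201 to 30137600 was a single peak of 33.4 kb in replicate 2 and 3 peaks in replicate 1, the widest of 14.4 kb. H3K27me3 covered 99.4% and 100% of it. Its neighbour from 30138401 to 30166200 was covered for 80.6% and 92.8%. Others in this stretch were also partly covered. H3K27me3 lay over 46.9% and 34.0% of the domain from 31528001 to 31560400, and over 42.3% and 80.3% of that from 31002801 to 31030200. The domain from 30168601 to 30192800 was covered for 51.2% and 59.5%. Of the 7 domains at 30 to 32 Mb among the 10 widest, only the one with the highest score was nearly without H3K27me3. Outside this stretch, the domain from 7584601 to 7611400 (26.8 kb) had no H3K27me3 peak, and the one from 45606401 to 45632600 (26.2 kb) was covered by H3K27me3 for 88.5% and 86.3%.

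POU5F1 encodes OCT4, a core transcription factor of pluripotency. The H3K4me3 peak over the gene, as placed in the track view of the study, lay at 27979201 to 27995400 in replicate 1 (16.2 kb) and at 27977601 to 27988200 in replicate 2 (10.6 kb), and the merged domain had rank 14 in width on the chromosome. In gene order POU5F1 stands between MIC1, a class I-like gene, and TCF19. Its 1 Mb window, 27 to 28 Mb, had rank 2 of 53 in weak H3K4me3 peaks.

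H3K27me3 peaks were also dense on chromosome 23, and counted without regard to score they were within the range of the other autosomes. Replicate 1 had 17.1 peaks per Mb and replicate 2 had 15.2, the medians elsewhere being 6.13 and 5.99, and chromosome 25 was slightly higher with 17.1 and 15.4. H3K27me3 covered 18.1% and 18.1% of the chromosome, against medians of 6.37% and 6.96% and 21.1% and 23.4% on chromosome 25. Weak H3K27me3 peaks, below the list medians of 180 and 315, made up 529 of 897 peaks (59.0%, 55.7% to 62.1%) and 517 of 796 (64.9%, 61.6% to 68.2%). Per Mb there were 10.1 and 9.85 weak H3K27me3 peaks, more than on any other autosome, the highest being chromosome 25 with 7.75 and 7.28. Strong H3K27me3 peaks, at 7.01 and 5.31 per Mb, ranked 3 of 29 in both libraries. The share of weak peaks was 48.5% and 52.6% on the other autosomes, with a highest chromosome at 57.7% and 61.8%. Chromosome 23 ranked 1 of 29 in this share in both libraries. The highest values elsewhere lay inside its intervals, which cover counting error only, and the difference was not tested. The excess by score was flatter than for H3K4me3, the ratios over the 10 score groups lying between 1.94 and 3.65 for replicate 1 and between 1.59 and 3.51 for replicate 2.

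Set against gene content, chromosome 23 had 0.752 and 0.735 weak H3K27me3 peaks per protein-coding gene, against medians of 0.382 and 0.406, and 1 other autosome was higher in each library. Strong H3K27me3 peaks stood at 0.523 and 0.397 per gene, against medians of 0.394 and 0.345, which ranked 8 and 9 of 29. Per gene, both classes of H3K27me3 peaks were therefore within the range of the other autosomes.

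Weak H3K27me3 peaks recurred in 66.2% of cases in replicate 1 and in 66.0% in replicate 2, against 76.7% and 68.1% on the other autosomes. Both shares were within the range of single autosomes, which began at 66.1% in replicate 1 and 60.1% in replicate 2. Strong H3K27me3 peaks recurred in 94.8% (92.1% to 96.7%) of cases in replicate 1, the lowest among the autosomes, and in 99.3% in replicate 2, against 99.2% and 98.98%. In windows of 1 Mb, weak H3K27me3 peaks exceeded the 99th percentile of the other autosomes in 3 windows in replicate 1 and 7 in replicate 2, and in both libraries at 14 to 15 Mb and 50 to 51 Mb. The shares of windows elsewhere were 0.898% and 0.898%, and 0.408% in both libraries. The window from 14 to 15 Mb had 27 and 21 weak and 28 and 25 strong H3K27me3 peaks and was covered for 73.1% and 71.6%.

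The widest H3K27me3 domains lay near the distal end, away from the wide H3K4me3 domains. Of the 5 widest merged domains, 4 had their centre beyond 47 Mb. The widest, 233 kb from 48491201 to 48724600, held peaks of 176 kb and 228 kb in replicates 1 and 2, and H3K4me3 covered 2.23% and 2.57% of it. The next one along the chromosome, from 48729201 to 48933400, had peaks of 204 kb and 203 kb, with H3K4me3 over 2.64% and 1.08%. The domain from 47538801 to 47757400 had peaks of 182 kb and 218 kb, and the one from 50899801 to 51058200 had peaks of 72.8 kb and 158 kb. The only one elsewhere, from 23237601 to 23449200, was a single peak of 212 kb in replicate 2 and 5 peaks in replicate 1, the widest of 98.0 kb. A domain of another kind, eighth in width, ran from 31036401 to 31165200, where H3K4me3 covered 84.5% in replicate 1 and 85.9% in replicate 2. The longest stretch without a listed H3K27me3 peak was 1714 kb, from 33556201 to 35270600, and the window from 34 to 35 Mb within it had no H3K27me3 peak in either library.

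On chromosome 23 a larger share of strong than of weak H3K4me3 peaks overlapped H3K27me3. Overlap was counted between the lists of the same replicate number, at 1 bp or more. Of the strong H3K4me3 peaks, 188 of 482 (39%, 34.8% to 43.4%) overlapped H3K27me3 in replicate 1 and 156 of 453 (34.4%, 30.2% to 38.9%) in replicate 2. The other autosomes had 20.8% and 19.5%, and the highest of them 27.7% and 28.8%. Of the weak peaks, 602 of 2001 (30.1%, 28.1% to 32.1%) and 480 of 1715 (28%, 25.9% to 30.2%) did, against 27.6% and 30.6%, which was within the range of single autosomes. H3K27me3 covered 18.1% of chromosome 23 in each library, against medians of 6.37% and 6.96% elsewhere. Strong H3K4me3 peaks of chromosome 23 were also wider, with medians of 4900 bp and 5000 bp. Weak ones there had 1400 bp and 1800 bp, and strong ones on the other autosomes 3400 bp and 3600 bp. The part of this coverage and of peak width in the shares of weak and strong peaks over H3K27me3 was not tested. Seen from the other mark, 37.8% and 32.3% of the weak and 67.9% and 70.3% of the strong H3K27me3 peaks overlapped H3K4me3. The other autosomes had 15.5% and 16.4% of the weak and 32.8% and 34.8% of the strong ones. These shares were above every other autosome in both libraries, and the higher number of H3K4me3 peaks on chromosome 23 moves with them; its part in the overlap was not tested.

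Overlap with H3K27me3 also sorted weak H3K4me3 peaks differently. On the other autosomes, weak peaks over H3K27me3 recurred more often than those outside it, with 81.1% against 63.9% in replicate 1 and 90.8% against 80.6% in replicate 2. On chromosome 23 the shares were 46.7% (42.7% to 50.7%) over H3K27me3 and 43.7% (41.2% to 46.4%) outside it in replicate 1. In replicate 2 they were 47.9% (43.5% to 52.4%) and 52.1% (49.3% to 54.8%). These intervals overlapped within each library, and the sign differed between libraries.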

How the data were processed

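Peak lists of 4 CUT&RUN libraries from NBFR-bESCs, 2 per mark, were grouped by mark and replicate number as given in the sample titles. Before deposit, the authors had mapped trimmed reads to ARS-UCD1.2 (BWA 0.7.17-r1188), discarded duplicates and poorly mapped reads and run epic2 library by library, with bins of 200 bp and longer gaps for H3K27me3. No control library is stated. The deposited score of each peak, a whole number of unstated meaning, served only to rank peaks within a list. Depth is unknown.

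Each peak was read as a run of whole 200 bp bins, with positions counted from 1. Chromosomes were measured up to the last listed peak, and a peak went to the 1 Mb window of its midpoint. Shares carry 95% Wilson intervals. Python 3.11.15, pandas 2.3.3, scipy 1.17.1 and matplotlib 3.10.9 were used, and the overlap step was tested on simulated lists against bedtools 2.31.1. The rule for named items took POU5F1, the 10 windows with most weak H3K4me3 peaks, the 10 widest H3K4me3 and 5 widest H3K27me3 merged domains and the emptiest windows. It was followed except for PRL, MIC1 and TCF19, named for gene order, and for single windows, gaps and the eighth H3K27me3 domain, chosen after their values were seen. POU5F1 was placed by eye in the track view. The chromosome, lists and rules were chosen with earlier results of these data known. Alternatives changed the weak class, the overlap, the window, the width minimum, the comparison chromosomes and the replicates used.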

Additional observations from a re-analysis of the deposited data

How the results depend on the processing

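No paired analysis was possible because no value comes from a test. Of 22 alternatives that kept both replicates, 8 moved a value by less than the spread between replicates or, for counts, by less than 1.5 times. The other 16 left out a replicate, and with 2 libraries a share or ratio cannot then move by more than that spread, so they say nothing of stability. Leaving out 1 replicate gave 5.15 to 5.53 times the median autosome for the density of H3K4me3 peaks, and 29 to 31 dense windows. Against the 9 autosomes whose last peak lay within 15 Mb of that of chromosome 23, the mean ratio of density over both libraries went from 5.34 to 4.61 for H3K4me3 and from 2.66 to 1.98 for H3K27me3. The mean share of weak H3K4me3 peaks, 79.8%, was 82.2% with weak peaks set by the score per 200 bp window, 50.7% with only the lowest 25% of scores called weak, and 82.7% without 30 to 32 Mb. With only the lowest 25% of scores called weak, the other autosomes had 20.7% in replicate 1 and 20.2% in replicate 2. By the same rule 30.5% of H3K27me3 peaks were weak in place of 62.0%, and chromosome 12 in replicate 1 was higher than chromosome 23, at 29.9% against 27.6%. Recurrence of weak H3K4me3 peaks, 47.8%, was 34.8% when 50% of the peak had to overlap and 34.1% among the lowest 25% of scores. Among those lowest scores it was 30.1% and 38.1% in the 2 libraries, against 43.1% and 66.7% on the other autosomes. For the 50% rule the other autosomes were not counted. The overlap of weak H3K4me3 peaks of chromosome 23 with H3K27me3, 29%, was 27% at 50% of the peak and 19.1% with H3K27me3 peaks at or above the median score. In windows of 500 kb, 47 of 105 were dense. Broad H3K4me3 peaks, 57.0 on average, numbered 244 at 5 kb or more, 16.5 at 15 kb or more and 36 without 30 to 32 Mb. The settings without 30 to 32 Mb were chosen after seeing the data. The missing read numbers limit what can be said of places without a peak.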
